A study of Sus scrofa with 15 samples.

Results

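The effect of extra wild-type polycystin-2 was examined by comparing LLC-PK1 cells that received a plasmid for normal human PKD2 (WT) with cells that received the empty plasmid (NC), 6 of the 15 RNA-seq libraries of the series. LLC-PK1 is an established renal proximal tubule epithelial line from a pig. The labels give the plasmid as FLAG-floxP-neo-pH11, without PKD2 for NC and with WT PKD2 for WT, whereas the methods name the empty plasmid pCAG-floxP-neo-pH11, without FLAG, so that the FLAG tag came with the insert. Both groups were thus transfected and both held the neomycin cassette and the pig H11 sequence. The transgene was human, carried a FLAG tag and was driven by the CAG promoter, and transfection was transient, with 3 µg of plasmid per well and RNA isolated 48 h later. There were 3 wells per plasmid, and the p-values measure the spread between wells of the same cell line. The 9 libraries of the mutants Tg1, Tg2 and Tg3 entered the model only to estimate the spread between replicates. Levels of the transgene and of pig PKD1 and pig PKD2 were not analysed here. A larger share of responding cells and a larger response per cell cannot be told apart in these bulk libraries.

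Polycystin-2 is a cation channel of the endoplasmic reticulum, the plasma membrane and the primary cilium that conducts calcium. It forms a complex with polycystin-1, the product of PKD1, and loss of either protein causes autosomal dominant polycystic kidney disease (ADPKD). Calcium entry and release feed into MAPK signaling, into calcineurin and into cAMP breakdown, and in the tubule these routes regulate proliferation, fluid secretion and cell shape. Overexpression of PKD2 is of interest because excess polycystin as well as its loss has been linked to cysts.

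The labelled cell type was checked against marker genes. Of 12 proximal tubule markers, 11 were found in the count table and all 11 passed the filter on low counts (an average of at least 2 CPM across the 15 libraries, where CPM is the count scaled to the library's normalized total). AQP1, the water channel, was at 277 ± 35.9 CPM (SD, n = 3) in NC and 304 ± 42.0 CPM (SD, n = 3) in WT. LRP2, the endocytic receptor megalin, was at 299.9 ± 4.03 CPM (SD, n = 3) in NC and 280.1 ± 25.0 CPM (SD, n = 3) in WT. None of the 4 endothelial markers in the table passed the filter, and PTPRC, which all leukocytes carry, had 3 counts in the 6 libraries together. The other leukocyte markers were not all near 0, since 3 of the 5 passed, namely CD3E at 20.3 CPM in NC and 20.7 CPM in WT, CD14 at 7.30 and 8.08 CPM and CD68 at 2.59 and 1.73 CPM. Among the fibroblast markers COL1A1, PDGFRA and PDGFRB did not pass, whereas COL1A2, a collagen chain, was at 949 ± 20.01 CPM (SD, n = 3) in NC and 986 ± 50.2 CPM (SD, n = 3) in WT.

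The total count per library was 22107982, 26132196 and 25064097 in NC replicates 1, 2 and 3 and 20999779, 22106028 and 21895167 in WT replicates 1, 2 and 3. Of the 16660 genes counted, 11553 were tested, and symbols were found for 13426 of the 16660. WT replicate 2 stood apart from the other WT libraries. The chi-square per degree of freedom, which is about 1 for counting noise alone, was 5.38 between WT replicates 1 and 3, 23.5 between 1 and 2 and 42.1 between 2 and 3, and it ranged from 3.66 to 14.9 among the NC libraries. Counts over gene lists are therefore given with and without WT replicate 2.

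With all 3 WT libraries, edgeR's quasi-likelihood test called 0 of the 11553 genes (0% called) as differentially expressed. A gene counted as a differentially expressed gene (DEG) if its adjusted p-value was at most 0.05 and its log2 fold change was at least 0.26 in size. The smallest adjusted p-value was 0.524. Before adjustment, 524 genes (4.54%) were under a p-value of 0.05, of which 247 (2.14%) had higher and 277 (2.4%) lower expression in WT. The groups were fully separated with WT above NC in 431 genes (3.73%) and with WT below NC in 542 (4.69%). DESeq2 in place of edgeR called 11 genes (0.0952%), all higher in WT, namely IER3, MYC, BHLHE40, DUSP5, ATF3, FOSL1, RND3, AMOTL2, DUSP1, CCN1 and ENSSSCG00000039658. That share is of the 11553 genes, but DESeq2 gave no adjusted p for some of them, such as PLAU, SLC25A25 and PPP1R1A. It therefore adjusted over fewer genes than edgeR did. The comparison was precise for most genes, with a median standard error (SE) of 0.07 and a median 95% interval of ± 0.16 around the log2 fold change. For 7277 of the genes (63.0%) the whole interval lay between -0.26 and 0.26, and for 11479 (99.4%) it lay between -1 and 1. Of the 294 genes whose log2 fold change reached 0.26 in size, 157 were higher and 137 lower in WT.

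**Figure D1:**
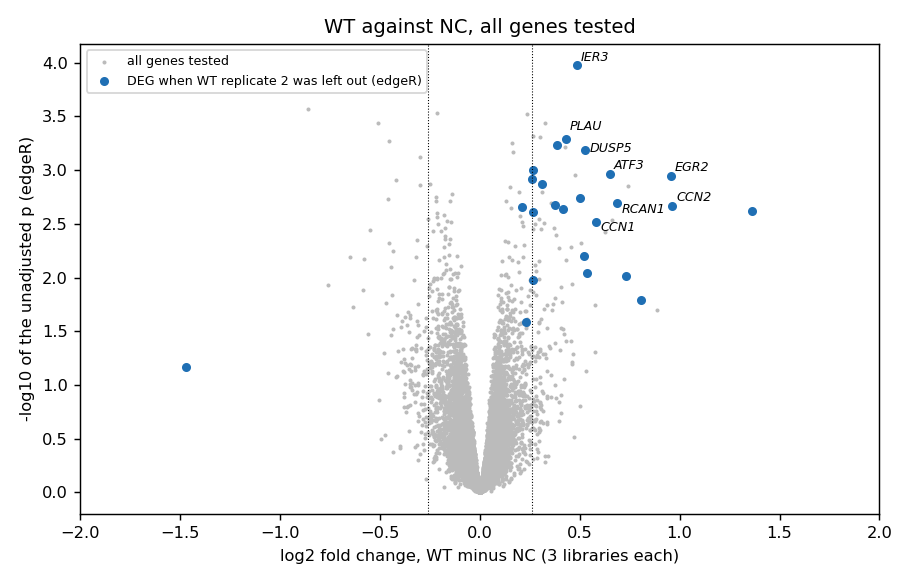
Log2 fold change of WT against NC (x axis) and -log10 of the unadjusted p-value from edgeR (y axis) for the 11553 genes tested, with dotted lines at -0.26 and 0.26. The 25 genes that were DEGs when WT replicate 2 was left out are in blue, and 24 of them lie to the right.

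The study lists 10 genes as raised by WT PKD2, and that list was chosen on these same libraries, so their direction is no independent evidence. For MYC, ADM and IER3, which the paper found raised in every PKD2 genotype, it also reports qRT-PCR that bore out the increase. Those qRT-PCR values were not used here. All 10 were higher in WT, all 10 had an unadjusted p-value under 0.05 and none was called by edgeR. DESeq2 called 4 of the 10 with all libraries, namely IER3 (adjusted p = 0.00115), MYC (0.0145), BHLHE40 (0.0145) and AMOTL2 (0.0443), and gave no adjusted p for PLAU, GADD45B, KLF6 and GADD45G. IER3, an immediate-early gene that modulates apoptosis, was at 179, 195 and 186 CPM in NC replicates 1 to 3 and at 284, 223 and 278 CPM in WT replicates 1 to 3. Every WT library lay above every NC library, and WT replicate 2 was the lowest of the WT group. The log2 fold change of IER3 was 0.49 (SE 0.09, 95% interval 0.29 to 0.68, adjusted p = 0.524 from edgeR). MYC, the transcription factor that drives growth and proliferation, was at 219, 236 and 223 CPM in NC and at 301, 262 and 273 CPM in WT, again without overlap. Its log2 fold change was 0.30 (SE 0.07, 95% interval 0.16 to 0.45, adjusted p = 0.524 from edgeR). Groups of libraries that lay fully above NC were found for 8 of the 10 genes, against 3.73% of all genes tested.

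The exceptions were GADD45B and GADD45G, stress sensors that activate the p38 and JNK kinases. GADD45G was at 31.0, 31.7 and 38.6 CPM in NC and at 58.1, 37.9 and 60.3 CPM in WT, and GADD45B was at 30.1, 33.3 and 36.1 CPM in NC and at 51.5, 35.5 and 53.7 CPM in WT. In both genes WT replicates 1 and 3 were well above NC and WT replicate 2 was within the NC range. ADM, which encodes the vasodilator adrenomedullin, had the opposite order, with 66.1, 73.6 and 64.4 CPM in NC and 87.6, 94.4 and 79.0 CPM in WT. It was the only gene of the 10 in which WT replicate 2 lay above the mean of WT replicates 1 and 3. Over the 10 genes the median log2 difference from the NC mean was 0.49 in WT replicate 1, 0.17 in replicate 2 and 0.54 in replicate 3.

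**Figure D2:**
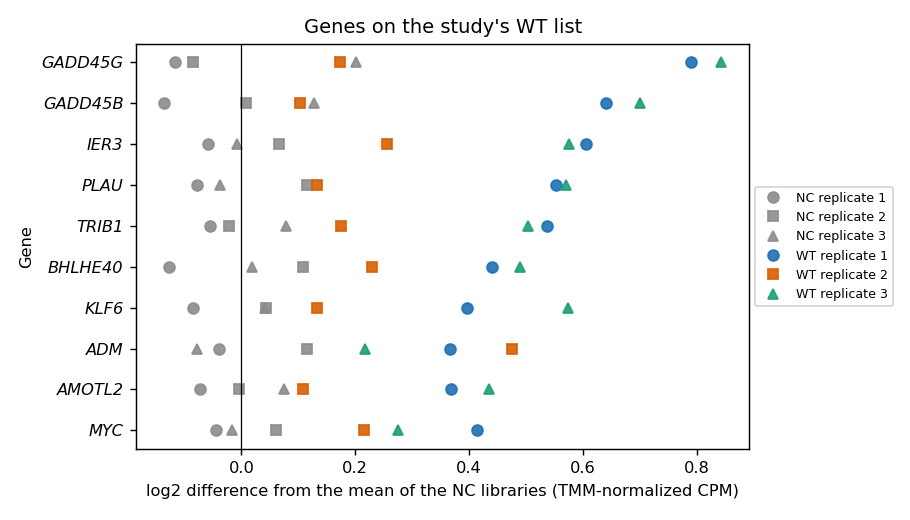
Log2 difference of each NC and WT library from the mean of the NC libraries (x axis, TMM-normalized CPM) for the 10 genes on the study's WT list (y axis). WT replicate 2, the orange squares, lies between NC and the other WT libraries for most genes and is highest for ADM.

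Beyond the study's list, the genes with a symbol, no overlap between groups and the smallest p-values included both regulators and metabolic genes. On the higher side were KRT80, a keratin, ZC3H12A, a ribonuclease that degrades inflammatory mRNAs, SLC25A25, a calcium-dependent mitochondrial carrier, PRDX2, a peroxidase, TBC1D2B and DUSP5, a phosphatase that inactivates nuclear ERK. PRDX2 was at 526, 535 and 549.8 CPM in NC and at 595, 602 and 604 CPM in WT, a difference of 0.16 on the log2 scale (SE 0.04, 95% interval 0.08 to 0.24). The WT libraries of PRDX2 were nearly equal, so that here WT replicate 2 did not stand apart. KRT80 was at 117, 119 and 121 CPM in NC and at 145, 138 and 140.4 CPM in WT, with a log2 fold change of 0.24 (SE 0.05). On the lower side were NRTN, the neurotrophic factor neurturin, C1QBP, a mitochondrial matrix protein, MARVELD1, MRPL57, a mitochondrial ribosomal protein, BRI3, PDCD7, CHEK2, a DNA damage checkpoint kinase, EGFLAM, CDK12, a kinase of transcription elongation, and TXLNG. NRTN was at 4.10, 3.05 and 4.74 CPM in NC and at 2.19, 1.79 and 2.54 CPM in WT, with a log2 fold change of -0.86 (SE 0.18) at low expression. C1QBP was at 124, 116 and 124 CPM in NC and at 107, 105 and 101 CPM in WT, with a log2 fold change of -0.21 (SE 0.04). None of these genes was called by edgeR, with adjusted p-values from 0.524 to 0.608, whereas DESeq2 called DUSP5 (adjusted p = 0.0145). KRT80 and PRDX2 (adjusted p = 0.0145 from DESeq2) and C1QBP (0.0211) missed a call only because their log2 fold changes were under 0.26 in size.

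Immediate-early transcription factors are made within minutes of a stimulus to calcium, MAPK or serum response signaling. Of 25 genes on this list, 24 were tested, 19 were higher in WT and 5 lower. An unadjusted p-value under 0.05 was found for 16, all of them higher, beside 2.14% of all genes. The list also holds the immediate-early gene IER3. IER3, MYC, KLF6 and BHLHE40 on it belong to the study's WT list, chosen on these same libraries. The same holds for TRIB1, AMOTL2, PLAU, GADD45B, GADD45G and ADM, which are members of lists described below. The median log2 fold change of the list was 0.29, beside 0.00 over all genes tested. In the fit without WT replicate 2, 18 had p under 0.05 on the higher side (beside 3.54% of all genes) and 3 on the lower side (beside 4.59%), namely CEBPD, IER5 and CEBPB. ATF3, a stress-induced factor, was at 236, 269.5 and 294 CPM in NC and at 449.9, 289 and 514 CPM in WT, so WT replicate 2 lay within the NC range. Its log2 fold change was 0.65 (SE 0.16). EGR2, an ERK target, was at 7.67, 8.74 and 9.02 CPM in NC and at 19.7, 10.1 and 19.6 CPM in WT, with a log2 fold change of 0.96 (SE 0.24). FOSL1, an AP-1 subunit, was at 60.6, 71.1 and 59.8 CPM in NC and at 98.2, 82.0 and 86.1 CPM in WT, all above NC. FOS, the best-known AP-1 subunit, was at 509.5, 518 and 619 CPM in NC and at 838, 524 and 861 CPM in WT, with WT replicate 2 again among the NC libraries. JUNB, another AP-1 subunit, differed from this pattern, with 122, 113 and 131 CPM in NC and 151, 148 and 143 CPM in WT.

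Several targets of ERK inhibit their own pathway. Of 19 feedback inhibitors listed, 15 were tested, 13 were higher and 2 lower in WT, and 6 had an unadjusted p-value under 0.05, all higher, beside 2.14% of all genes. DUSP5 was at 235, 269 and 263 CPM in NC and at 395, 301 and 411 CPM in WT, a log2 fold change of 0.53 (SE 0.12, adjusted p = 0.524 from edgeR). DUSP1, which dephosphorylates p38 and JNK, was at 403, 404 and 448 CPM in NC and at 620.2, 463 and 590.5 CPM in WT, a log2 fold change of 0.41 (SE 0.11). TRIB1, a pseudokinase that binds MEK, was at 166, 170.1 and 182 CPM in NC and at 251, 195 and 245 CPM in WT. Every WT library of these 3 genes lay above NC. Leaving out WT replicate 2 gave 11 higher of the 15, with 5 at p under 0.05, all higher (beside 3.54% of all genes in that fit). SPRY2, an inhibitor of receptor tyrosine kinase signaling, was at 14.1, 15.2 and 14.6 CPM in NC and at 18.1, 17.0 and 17.0 CPM in WT, without a low value in replicate 2.

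Targets of YAP and TEAD, which respond to cell shape and tension, were split. Of 16 listed, 14 were tested, 10 were higher and 4 lower, with 5 higher (beside 2.14% of all genes) and 1 lower (beside 2.4%) at an unadjusted p-value under 0.05. CCN2, a matricellular protein, was at 52.4, 56.6 and 62.5 CPM in NC and at 136, 55.3 and 144 CPM in WT. WT replicates 1 and 3 were thus more than double the NC level while WT replicate 2 equalled it, and the log2 fold change of 0.96 had an SE of 0.26. CCN1, its relative, was at 961, 977 and 1091 CPM in NC and at 1676, 1053 and 1806 CPM in WT. AMOTL2, an angiomotin that binds YAP, was at 323, 338 and 357 CPM in NC and at 438, 366 and 458 CPM in WT, all above NC. ANKRD1 was at 246, 287 and 256 CPM in NC and at 319, 331 and 306 CPM in WT, with no low value in replicate 2. TEAD1, the DNA-binding partner itself, was the lower gene, with a log2 fold change of -0.16 (SE 0.07), and it was at -0.08 and no longer under p of 0.05 when WT replicate 2 was left out. In that fit 5 of the 14 had p under 0.05, all higher (beside 3.54% of all genes).

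Plasminogen activation was represented by PLAU, which encodes urokinase, at 51.4, 58.8 and 52.9 CPM in NC and 79.5, 59.5 and 80.6 CPM in WT. The WT libraries were all above NC, but replicate 2 by less than 1 CPM. Of 7 genes tested of this list 6 were higher, and PLAU had p under 0.05 before adjustment. Without WT replicate 2, 3 of the 7 were higher, and with replicate 2 left out of both groups 6 were.

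Genes of calcium stores and calcium entry, the process polycystin-2 takes part in, were divided between 11 higher and 13 lower of the 24 tested, with 1 higher and 2 lower at an unadjusted p-value under 0.05, beside 4.54% of all genes. The higher gene was RCAN1, an inhibitor of calcineurin whose transcription calcineurin itself induces, at 184, 197 and 200.2 CPM in NC and 351, 198 and 387 CPM in WT. WT replicate 2 was inside the NC range, and the log2 fold change was 0.69 (SE 0.18, adjusted p = 0.608 from edgeR). The lower genes were ATP2B1, a plasma membrane calcium pump, with a log2 fold change of -0.14 (SE 0.05), and NFAT5, the osmotic stress factor, with -0.19 (SE 0.08). For 15 of the 24 genes (62.5%) the 95% interval lay within ± 0.26, beside 63.0% of all genes. When WT replicate 2 was left out, 3 genes were higher (RCAN1, TRPV4 and ORAI3) and 1 lower (TRPM7) at p under 0.05. Over all genes in that fit 3.54% were higher and 4.59% lower at that p.

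WT replicate 2 was then compared with WT replicates 1 and 3 gene by gene, as a description without a test, because this library was singled out after its values were known. For every one of the 15 libraries the log2 CPM was set against the mean of the other replicates of its plasmid. In WT replicate 2, 2505 genes (21.7%) departed by 0.26 or more, 1356 above and 1149 below, the largest number of the 15 libraries. WT replicate 3 followed with 1853 genes (16.04%) and Tg2 replicate 3 with 1837 (15.9%), while the other 12 libraries had between 563 (4.87%) and 1386 (12.0%). The standard deviation of the departure over genes was 0.29 for WT replicate 2, 0.24 for WT replicate 3 and 0.16 for WT replicate 1. Since WT replicates 2 and 3 were the furthest apart, part of the departure of each is shared. WT replicates 1 and 3 lay together above all NC libraries in 1483 genes, and WT replicate 2 did so too in 431 of these (29.1%). The corresponding shares were 55.3% for WT replicate 1 and 49.0% for WT replicate 3. Below all NC libraries the shares were 34.8% for WT replicate 2, 53.7% for replicate 1 and 49.3% for replicate 3.

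**Figure D3:**
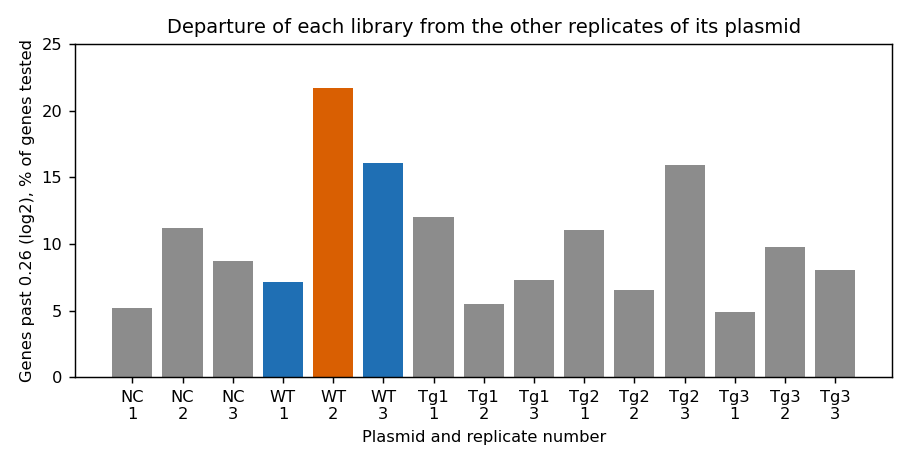
Share of the 11553 genes, in percent (y axis), in which each library departed by 0.26 or more on the log2 scale from the mean of the other replicates of its plasmid (x axis). WT replicate 2 has the tallest bar at 21.7%, and WT replicate 3 follows at 16.04%.

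The departures of WT replicate 2 ran in both directions. Among the gene lists, its median log2 difference from WT replicates 1 and 3 ranged from -0.34 in the study's WT list to 1.04 in the interferon list, and it was 0.01 in calcium stores and entry and 0.02 in growth factors. Genes of the type I interferon response, which cells switch on when they sense foreign nucleic acid, were all higher in WT replicate 2. In each of the 20 tested members this library was the highest of the 6, beside 2819 of all 11553 genes. The median log2 difference of the list from the NC mean was -0.19 in WT replicate 1, 0.60 in replicate 2 and -0.66 in replicate 3. NC replicate 2 was also the highest NC library in all 20 members, beside 4456 of all 11553 genes, so that the same replicate number was high in both groups. The summed level of the 20 genes was 18309, 24609 and 16004 CPM in NC replicates 1 to 3 and 16539, 29423 and 12123 CPM in WT replicates 1 to 3. CXCL10, a chemokine induced by interferon, was at 254, 417 and 170.4 CPM in NC and at 199, 557 and 120.4 CPM in WT. The groups overlapped fully, with a log2 fold change of 0.06 (SE 0.47, 95% interval -0.95 to 1.06). RSAD2, the antiviral enzyme viperin and an abundant member, was at 3189, 4528 and 2814 CPM in NC and at 2808, 5276 and 2036 CPM in WT. In WT against NC 7 of the 20 genes were higher and 13 lower, and none had p under 0.05 before adjustment.

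Without WT replicate 2, all 20 interferon genes were lower in WT, 10 of them at an unadjusted p-value under 0.05 (beside 4.59% of all genes in that direction) and 0 as DEGs, with a median log2 fold change of -0.43. That fit kept NC replicate 2, the highest NC library in all 20. With replicate 2 left out of both groups, all 20 were again lower, but the median was -0.23 and 0 of them had p under 0.05 before adjustment (beside 2.78% of all genes in that direction). IFIH1, a sensor of double-stranded RNA, had the smallest p-value of the list, with 194, 255 and 181 CPM in NC and 163, 282 and 129.8 CPM in WT. Its log2 fold change moved from -0.13 (SE 0.23) to -0.52 when WT replicate 2 was left out, and to -0.35 when replicate 2 was left out of both groups. Whether the spread of these genes between wells bears on the other differences was not tested.

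The genes furthest above in WT replicate 2 among those with a mean of 10 CPM or more and a symbol were STEAP4, a metalloreductase, CXCL11, CXCL10, IL28B, a type III interferon, IL4I1 and the nuclear receptor NR4A3. Their log2 differences from the mean of WT replicates 1 and 3 ranged from 1.75 for NR4A3 to 2.16 for STEAP4. In each of these 6 genes NC replicate 2 was the highest NC library, as for CXCL11 with 153, 267 and 107 CPM in NC and 127, 350.5 and 72.8 CPM in WT. The genes furthest below were NR4A1, CCN2, RNF39, EGR2, F3 and RCAN1, with differences from -1.51 for NR4A1 to -0.90 for RCAN1. NR4A1, an immediate-early nuclear receptor, was at 127, 126 and 168 CPM in NC and at 315, 116 and 347 CPM in WT. F3, which encodes tissue factor, was at 27.5, 27.2 and 32.9 CPM in NC and at 48.6, 25.3 and 46.4 CPM in WT. In these 6 genes WT replicate 2 was at or near the NC level and WT replicates 1 and 3 were above all NC libraries. The receptors NR4A1 and NR4A3 moved in opposite directions in this library.

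**Figure D4:**
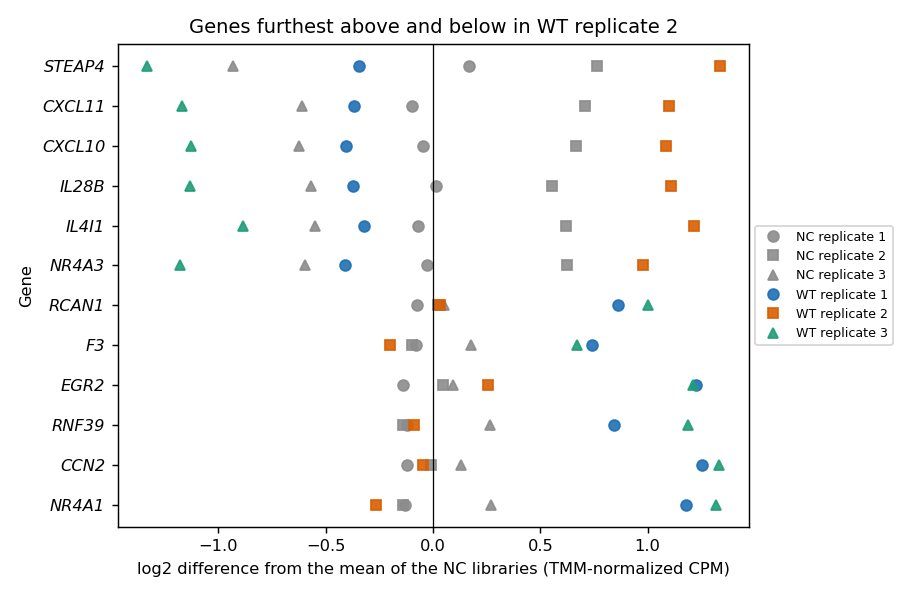
Log2 difference of each NC and WT library from the mean of the NC libraries (x axis) for the 6 genes furthest above and the 6 furthest below in WT replicate 2 (y axis). In the upper genes the orange and the grey squares, WT and NC replicate 2, are the highest of their groups, and in the lower genes WT replicates 1 and 3 stand alone on the right.

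When WT replicate 2 was left out, edgeR called 25 DEGs (0.216%), 24 higher and 1 lower. The library left out was the lowest WT library in 24 of the 25. It lay within or below the NC range in 13 of them and above all NC libraries in 12. Before adjustment, p was under 0.05 in 939 genes (8.13%), with 409 higher (3.54%) and 530 lower (4.59%). The single remaining pair of WT wells was assumed to vary like the other groups. WT replicate 2 was singled out after its values were known, and the p-values of this fit do not allow for that choice. Of the study's 10 genes, 6 were called (IER3, PLAU, BHLHE40, AMOTL2, GADD45B and KLF6). CCN2 rose by a log2 fold change of 1.29 (adjusted p = 0.000738 from edgeR), RCAN1 by 0.93 (adjusted p = 0.00151) and SYNPO2L, an actin-binding protein, by 1.17 (adjusted p = 0.00228). ATF3 rose by 0.86 and PLAU by 0.56, both at an adjusted p of 0.00205 by edgeR. EGR2 rose by 1.21, CCN1 by 0.79 and THBS1, which encodes thrombospondin, by 0.36. PLK2, a kinase induced by stress, rose by 0.73, and GADD45A, the third GADD45 gene, by 0.36. DUSP5 and DUSP1 rose by 0.66 and 0.53, and RNF39 by 1.01. EGR3, an immediate-early factor named here after its values were seen, had the largest of the 24 increases at 1.68, from a low level of 2.60, 3.55 and 5.28 CPM in NC to 13.1 and 11.6 CPM in WT replicates 1 and 3, with 4.86 CPM in WT replicate 2. A fit blocked on replicate number and also lacking WT replicate 2 called 30 DEGs, of which 24 were among the 25. In the fit with all libraries 24 of the 25 had an unadjusted p-value under 0.05. DESeq2 on all libraries shared 9 genes with this set, 36.0% of the 25 and 81.8% of its own 11.

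The lower DEG of this fit, ENSSSCG00000039615, was singled out after its values were seen and has no symbol here. It had 93, 86 and 92 counts in NC, 0 counts in WT replicates 1 and 3 and 86 counts in WT replicate 2, and between 67 and 104 counts in the 9 mutant libraries. A count of 0 allows up to 0.1397 CPM in WT replicate 1 and 0.131 CPM in WT replicate 3, at 3 counts per library and for counting error only. The zeros may be an all-or-none result of the quantification, which was not tested, and the limits do not cover that. No fold change is given for this gene, since the fitted value depends on the prior count.

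The number of calls also depended on which wells remained. Of the 6 fits that left out a single WT or NC library, the 5 others gave 0 DEGs, and between 357 and 545 genes had p under 0.05 in them before adjustment. When replicate 2 was left out of both groups, 15 genes (0.13%) were called, 14 higher and 1 lower, and all 15 were among the 25. These included CCN2, THBS1, CCN1, EGR2, RCAN1, ATF3, GADD45B, IER3 and PLAU.

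Genes of processes linked to polycystin-2 and cyst growth were examined by list. Of 30 cilium and cystic kidney genes listed, 26 were tested, 11 were higher and 15 lower, and 2 were lower at an unadjusted p-value under 0.05 (beside 2.4% of all genes). These were CEP290, a protein of the ciliary transition zone, with a log2 fold change of -0.17 (SE 0.07), and IFT140, of the retrograde transport complex, with -0.21 (SE 0.10). Neither was a DEG. When WT replicate 2 was left out, neither kept p under 0.05 and the balance turned, with CEP290 at -0.15 and IFT140 at -0.12. In that fit 16 of the 26 were higher and 0 had p under 0.05 (beside 8.13% of all genes). The interval lay within ± 0.26 for 22 of the 26, beside 63.0% of all genes. Of 33 cell cycle genes tested, 10 were higher and 23 lower, with 1 higher and 3 lower at an unadjusted p-value under 0.05 (beside 2.14% and 2.4% of all genes), and for 28 of them the interval lay within ± 0.26. CDKN1B, the inhibitor p27, was at 35.9, 35.9 and 36.2 CPM in NC and at 38.8, 37.6 and 40.0 CPM in WT, while E2F1, a factor for entry into S phase, had a log2 fold change of -0.23 (SE 0.10). KIF20B, a kinesin of cytokinesis, was lower by -0.13, and so was the gene listed as PLK4, whose identifier carries another symbol in the gene name table. Leaving out WT replicate 2 gave the same counts at p under 0.05 (beside 3.54% of all genes higher and 4.59% lower). The 3 lower genes were then CDKN2B, MCM3 and MCM5. With replicate 2 left out of both groups, 15 cell cycle genes were higher and 18 lower. At p under 0.05 these were 1 and 1, beside 275 and 321 of all 11553 genes. Of 16 cAMP-responsive genes and PKA subunits tested, 9 were higher and 7 lower, with 2 higher (beside 2.14% of all genes) and 2 lower (beside 2.4%) at an unadjusted p-value under 0.05. Only 5 of the 16 intervals lay within ± 0.26. The higher genes at p under 0.05 numbered 6 without WT replicate 2 (beside 3.54% of all genes). With replicate 2 left out of both groups they numbered 5 (beside 275 of all 11553 genes). The lower ones numbered 2 in both fits (beside 4.59% and 2.78% of all genes). PRKACA, the catalytic subunit of PKA, was at 74.0, 75.7 and 78.8 CPM in NC and at 67.9, 62.6 and 71.8 CPM in WT, and PPP1R1A, a phosphatase inhibitor that PKA activates, had a log2 fold change of -0.17 (SE 0.05). SIK1 and NR4A1 were higher, with log2 fold changes of 0.41 and 0.88.

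Chaperones and growth factors were also examined. Of 21 unfolded protein response genes tested, 12 were higher and 9 lower, and only HSPA5, the main chaperone of the endoplasmic reticulum, had an unadjusted p-value under 0.05 (beside 48.2% of all genes higher and 2.14% higher at that p). HSPA5 was at 1008, 1090 and 1022 CPM in NC and at 1137, 1131 and 1186 CPM in WT, without overlap and with replicate 2 like the others, a log2 fold change of 0.15 (SE 0.05). The interval was within ± 0.26 for 15 of the 21, beside 63.0% of all genes, and 9 of the 21 were higher when WT replicate 2 was left out. Of 14 growth factors and vasoactive peptides tested, 4 were higher at an unadjusted p-value under 0.05 (ADM, HBEGF, EDN1 and VEGFA, beside 2.14% of all genes) and PDGFA was lower (beside 2.4%). EDN1, the vasoconstrictor endothelin-1, was at 25.7, 35.5 and 27.4 CPM in NC and at 45.2, 41.6 and 40.2 CPM in WT, a log2 fold change of 0.52 (SE 0.16). HBEGF, a ligand of the EGF receptor, was at 90.2, 101 and 98.9 CPM in NC and at 122, 104.5 and 136 CPM in WT. Every WT library of both genes lay above NC. Without WT replicate 2 the list also had 4 higher (beside 3.54% of all genes) and 1 lower (beside 4.59%) at p under 0.05. In that fit GDF15 and FGF2 took the places of VEGFA and PDGFA.

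Of 21 hypoxia and glycolysis genes tested, 20 were higher in WT, beside 48.2% of all genes, and 5 of these had an unadjusted p-value under 0.05, beside 2.14%. PFKFB3, an activator of glycolysis, was at 113, 131 and 119 CPM in NC and at 139.7, 164 and 143 CPM in WT, highest in replicate 2. This library was the highest of the 6 in 18 of the 21 genes. Without it 12 of the 21 were higher, 2 of them at an unadjusted p-value under 0.05 (beside 3.54% of all genes). The list's median log2 fold change was 0.08 with and 0.03 without WT replicate 2. NF-kB and cytokine genes were 14 higher and 4 lower of the 18 tested, but 6 higher without WT replicate 2, and 2 of them, NFKBIZ and CXCL2, had an unadjusted p-value under 0.05 (beside 2.14% of all genes). Of 23 apoptosis genes 15 were higher, and 8 without WT replicate 2. BCL2L1 and MCL1, inhibitors of apoptosis, had log2 fold changes of 0.09 and 0.13. They were the 2 with p under 0.05 before adjustment (beside 2.14% of all genes). Without WT replicate 2, 0 apoptosis genes were so on the higher side (beside 3.54%). Of 18 GADD45 genes and p53 targets tested, 11 were higher and 7 lower, and the 4 with an unadjusted p-value under 0.05 (beside 2.14% of all genes, all 4 being higher) were GADD45A, GADD45B, GADD45G and PLK2. In the fit without WT replicate 2, 7 were higher at that p (beside 3.54% of all genes) and 1, PMAIP1, was lower (beside 4.59%). CDKN1A, the main p53 target in cell cycle arrest, had a log2 fold change of 0.08 (SE 0.07). With replicate 2 left out of both groups, 16 of the 21 hypoxia genes, 8 of the 18 NF-kB genes and 9 of the 23 apoptosis genes were higher. Focal adhesion and actin genes had the largest share of narrow intervals of the lists, with 22 of 24 intervals within ± 0.26, and 17 of the 24 were higher with and 16 without WT replicate 2. At an unadjusted p-value under 0.05, 2 were higher (beside 2.14% of all genes) and 1 lower (beside 2.4%). Without WT replicate 2 these were 3 (beside 3.54%) and 0 (beside 4.59%). ACTB, an actin, had a log2 fold change of 0.09 (SE 0.03), and ITGAV, an integrin subunit and the lower gene, of -0.09, which was -0.05 without WT replicate 2.

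Mitochondrially encoded genes made up 3.20%, 3.16% and 3.42% of counts in NC replicates 1 to 3 and 3.19%, 2.87% and 3.25% in WT. Of the 13 genes, 11 were lower in WT, with 2 at an unadjusted p-value under 0.05 (beside 2.4% of all genes), and 11 were lowest of the 6 libraries in WT replicate 2. COX1, a subunit of cytochrome c oxidase, was at 16876, 17185 and 17640 CPM in NC and at 16226, 16329 and 15915 CPM in WT, a log2 fold change of -0.09 (SE 0.03). Without WT replicate 2, 9 of the 13 were higher, and with replicate 2 left out of both groups 8 were. The part of mitochondrial RNA in the other differences was not tested.

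**Figure D5:**
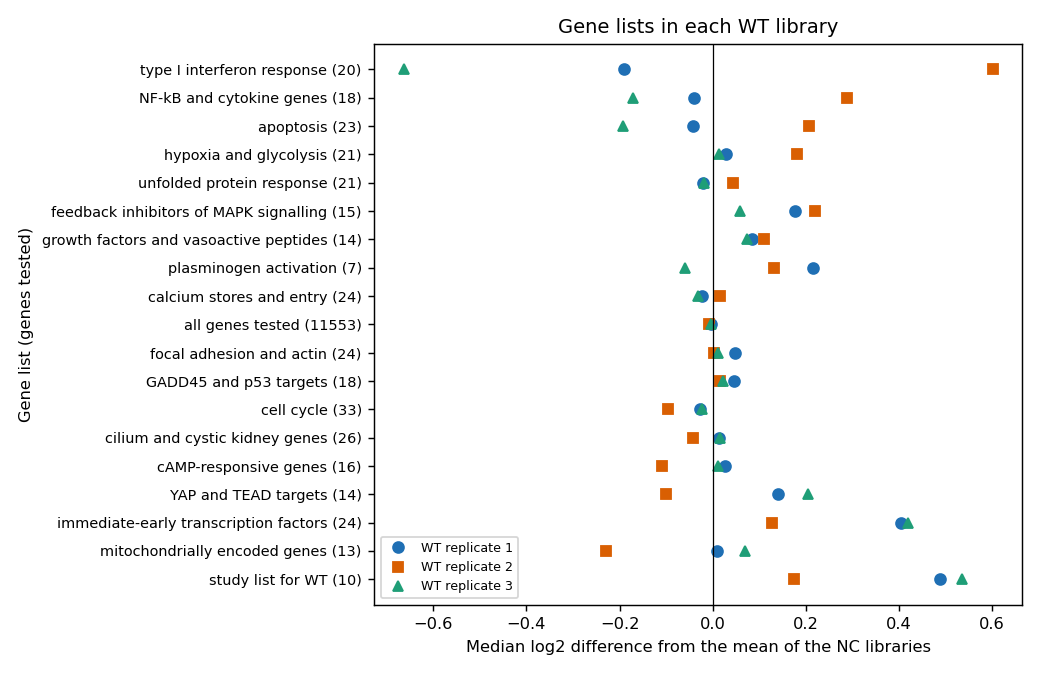
Median log2 difference from the mean of the NC libraries (x axis) of each gene list (y axis, with the number of genes tested) in the 3 WT libraries. WT replicate 2, the orange squares, is far to the right for the interferon list at 0.60, to the left for mitochondrially encoded genes, and below the other WT libraries for immediate-early factors.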

How the data were processed

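Total RNA of LLC-PK1 cells was poly(A)-selected and sequenced. The authors quantified transcripts with Salmon, also named in the submitters' processing notes, against Ensembl pig cDNA and deposited raw counts as whole numbers for each Ensembl gene; how transcripts were summed to genes is not given in the sources used here. Transcripts shared between related genes can be assigned to either gene.

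Genes that averaged at least 2 CPM across the 15 libraries were tested with edgeR 4.0.16 in R 4.3.3 (TMM, glmQLFit with legacy dispersions, glmQLFTest, all 15 libraries, Benjamini-Hochberg adjustment). DESeq2 1.42.0 was an alternative. The standard error was the estimate over the square root of F. CPM values are TMM-normalized. An exact permutation test of 3 against 3 cannot go below 0.1, so that no single gene could reach significance by it. On counts simulated for WT against NC with 11553 genes, edgeR recovered 99% of 100 genes shifted by 1 on the log2 scale and 86% of 100 shifted by 0.5, with 8 false calls. The simulation gave every gene the same dispersion (0.00536) and held no outlying library. Recovery in the data, where the spread differs between genes and WT replicate 2 stands apart, may therefore be lower. The correlation over genes of deviations from the group mean was 0.15, 0.54 and 0.46 between same-numbered WT and NC libraries. The numbers were therefore taken to pair the WT and NC wells. However, WT replicate 1 had a higher value with NC replicate 3 (0.28) than with NC replicate 1. The other differently numbered pairs of WT and NC libraries ranged from -0.54 to 0.02. Same-numbered pairs with a mutant library ranged from -0.36 (Tg1 and Tg2 replicate 1) to 0.55 (Tg2 and WT replicate 3). The block over all 15 libraries thus assumed a shared shift that not every same-numbered pair showed. The labels do not state a shared batch.

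The genes named were the study's WT list, the 10 higher and 10 lower genes with the smallest p-values and no overlap, the 2 leading members of each list, the 6 furthest above and below in WT replicate 2, and up to 15 called without it; others were named after their values were seen, and 1 item is not reported here. Members and lists were chosen with earlier results of these data known. Symbols came from the study's supplementary lists (1437) and a gene name table (11989), which differ for 26 identifiers.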

Additional observations from a re-analysis of the deposited data

How the results depend on the processing

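The count of 0 DEGs for WT against NC was the same with size factors in edgeR, no filter, a filter of 10 CPM, only the 6 WT and NC libraries, no fold-change threshold and edgeR's newer dispersions, the last chosen after seeing the data. With the replicate number as a block it was 0 as well, both with all 15 libraries (596 genes at an unadjusted p-value under 0.05, smallest adjusted p = 0.425 from edgeR) and with only WT and NC (695 genes, smallest adjusted p = 0.145). Without WT replicate 2 the block gave 30 DEGs (28 higher, 2 lower, 24 of them among the 25 found without the block), a fit chosen after seeing the data. The pairing was not tried in the other fits. Without the block the count was 11 with DESeq2, between 0 and 25 in the 6 fits without 1 library (25 without WT replicate 2), and 15 without replicate 2 of both groups, an alternative chosen after seeing the data. With a filter of 10 CPM the departure of WT replicate 2 fell to a standard deviation of 0.246 over genes and 1664 genes past 0.26, still the largest of the 15 libraries. The cause of these shifts was not tested. Among the 67 genes named by rule, the direction turned in IFIH1 and IFI44 of the interferon list and in 6 genes chosen for their departure in WT replicate 2, while counts over whole lists also turned without WT replicate 2. With the block, the log2 fold change was -0.052 for CXCL10 (-0.13 with only WT and NC) and -0.042 for CXCL11 (-0.12), and that of IL28B was -0.011 with only WT and NC. Without WT replicate 2 the block gave -0.71 for STEAP4, -0.60 for CXCL11, -0.61 for CXCL10, -0.62 for IL28B and -0.50 for IL4I1. With replicate 2 left out of both groups the value was -0.47 for STEAP4, -0.38 for CXCL11, -0.41 for CXCL10, -0.45 for IL28B and -0.28 for IL4I1. In the fits without 1 library it ranged from -0.52 to 0.085 for IFIH1, -0.26 to 0.098 for IFI44, -0.92 to 0.60 for STEAP4, -0.82 to 0.50 for CXCL11, -0.82 to 0.46 for CXCL10, -0.78 to 0.48 for IL28B, -0.66 to 0.58 for IL4I1 and -0.84 to 0.36 for NR4A3, with the lowest value always without WT replicate 2.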

Other observations

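Among markers of renal epithelium, EPCAM, an adhesion molecule, was at 61.7 ± 0.754 CPM (SD, n = 3) in NC and 53.4 ± 0.655 CPM (SD, n = 3) in WT, and edgeR did not call this difference of -0.21 on the log2 scale. KRT8, a keratin of simple epithelia, was at 2160 ± 30.5 CPM in NC and 2271 ± 24.1 CPM in WT. Of 6 such markers in the table, 6 were tested, and their summed level was 3588, 3656 and 3589 CPM in NC replicates 1 to 3 and 3776, 3794 and 3715 CPM in WT replicates 1 to 3. Of 5 markers of thick limb, distal tubule and collecting duct in the table, 2 were tested, with SLC12A1, the cotransporter that furosemide blocks, at 14.5 ± 1.66 CPM in NC and 13.5 ± 1.07 CPM in WT. Of the leukocyte markers, CD3E was the most abundant at 20.3 ± 0.578 CPM in NC and 20.7 ± 0.0625 CPM in WT, while CD68, a lysosomal protein, was at 2.59 ± 0.243 CPM in NC and 1.73 ± 0.358 CPM in WT.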
